A study of Rattus norvegicus with 232 samples.

Results

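The cytochrome P450 genes measured in rat brain were all genes of the RefSeq gene table whose symbol starts with Cyp followed by a number. This rule gave 51 of 20859 genes. The study sequenced ribosomal RNA-depleted total RNA from the brains of untreated rats of inbred strains, and used a subset of them to compare ways of modelling the link between genotype and RNA level. The table held 197 animals of 74 strains: 88 animals of 30 HXB/BXH recombinant inbred strains, 43 animals of 19 FXLE/LEXF recombinant inbred strains, and 66 animals of 25 classic inbred strains. The HXB/BXH strains descend from BN-Lx/Cub and SHR/OlaIpcv, and the FXLE/LEXF strains from F344/Stm and LE/Stm, so that each recombinant strain is fixed for a mosaic of its progenitors. Most strains had 3 animals (54 strains), 15 had 2 and 5 had 1, among them LE/Stm. The animals were adult males, untreated, and the labels name neither a transgene nor an agent. Libraries made repeatedly from the same animal were averaged.

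Values are the deposited expression values on a log2 scale, and the read depth behind them is unknown, so that a low value cannot be told from absence. A strain effect was tested by the moderated F-test of limma over strains, with p-values adjusted over all genes (Benjamini-Hochberg) and called at 5%. R2, which the paper uses to estimate broad-sense heritability, is the between-strain share of the total sum of squares. With few animals per strain it lies well above 0 even without strain differences. The paper compared its R2 with permuted strain labels, which was not done here. The median R2 of all genes was 0.410 in HXB/BXH and 0.516 in FXLE/LEXF, so R2 is not on 1 scale between families. Among all genes 37.7% were called over the 74 strains, and the median R2 was 0.451. A mixture of cell types was sequenced, so fewer cells of a type and less RNA per cell cannot be told apart.

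Cytochrome P450 enzymes are heme proteins of the endoplasmic reticulum and mitochondria that insert oxygen into lipids, steroids, vitamins and foreign compounds. Members of the Cyp2 and Cyp3 families are made in bulk by hepatocytes, where they clear drugs. In brain the family is known for cholesterol turnover in neurons, for local steroid synthesis, for fatty acid and eicosanoid hydroxylation and for the breakdown of retinoic acid. The electrons come from the reductase Por and cytochrome b5 in the endoplasmic reticulum, and from ferredoxin in mitochondria.

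All 51 members were found by symbol in the RefSeq gene table of the GRCr8 assembly, which lists 90 protein-coding genes named in this way. The other 39 were not analysed here. The members are clustered: 14 lie on chromosome 7, among them the Cyp2d, Cyp4f and Cyp11b genes, and 13 on chromosome 1, among them the Cyp2c genes. Genes within these clusters are paralogs with long stretches of shared sequence. The submitters' processing notes name RSEM, which divides shared reads between genes by estimation, without saying which table it made, so values of single Cyp2c, Cyp2d, Cyp3a, Cyp4f and Cyp11b genes are uncertain to that extent.

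The promoters of 4 genes are shown because their genes carry the main contrasts of the results: Cyp2c11 and Cyp2e1 rose with liver genes in a few animals, Cyp2d1 segregated in the HXB/BXH family, and Cyp46a1 had no strain effect over the 74 strains. Each runs from 250 bases before to 50 bases after the gene start in RefSeq (GRCr8), read 5′ to 3′ on the strand of the gene. Capitals mark TATAAA, the core of a TATA box, or GGGCGG, the GC box bound by Sp1, each searched on both strands; the motifs do not overlap. Cyp2c11 is at chr1:246174966-246175265 (plus strand), Cyp2e1 at chr1:205269717-205270016 (plus), Cyp2d1 at chr7:115793381-115793680 (minus) and Cyp46a1 at chr6:133011740-133012039 (plus).
Cyp2c11: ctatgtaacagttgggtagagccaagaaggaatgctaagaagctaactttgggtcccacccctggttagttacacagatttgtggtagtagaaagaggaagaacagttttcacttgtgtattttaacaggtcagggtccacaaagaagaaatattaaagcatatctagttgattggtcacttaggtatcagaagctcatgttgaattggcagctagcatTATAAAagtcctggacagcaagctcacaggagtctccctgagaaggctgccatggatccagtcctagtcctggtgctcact
Cyp2e1: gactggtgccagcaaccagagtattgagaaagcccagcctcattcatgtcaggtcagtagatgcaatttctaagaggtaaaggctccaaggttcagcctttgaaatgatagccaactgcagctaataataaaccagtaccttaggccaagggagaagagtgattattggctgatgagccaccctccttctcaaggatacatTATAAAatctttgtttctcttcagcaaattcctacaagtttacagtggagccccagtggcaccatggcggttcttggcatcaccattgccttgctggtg
Cyp2d1: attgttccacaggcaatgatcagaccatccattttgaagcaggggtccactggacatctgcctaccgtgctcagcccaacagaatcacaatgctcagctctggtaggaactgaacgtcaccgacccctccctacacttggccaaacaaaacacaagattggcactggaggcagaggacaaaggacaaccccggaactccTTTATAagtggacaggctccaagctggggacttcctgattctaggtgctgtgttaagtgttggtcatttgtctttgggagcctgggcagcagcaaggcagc
Cyp46a1: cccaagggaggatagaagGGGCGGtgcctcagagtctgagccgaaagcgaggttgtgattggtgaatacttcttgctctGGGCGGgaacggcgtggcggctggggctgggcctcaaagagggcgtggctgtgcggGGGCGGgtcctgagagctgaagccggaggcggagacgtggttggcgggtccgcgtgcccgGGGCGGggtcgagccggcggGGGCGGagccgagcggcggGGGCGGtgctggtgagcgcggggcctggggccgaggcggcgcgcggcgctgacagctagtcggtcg
Of 33469 promoters in that table, 14.2% held TATAAA and 33.1% held GGGCGG on either strand. The windows of Cyp2c11, Cyp2e1 and Cyp2d1 held 1 TATAAA each, that of Cyp2d1 on the other strand, and no GGGCGG, while that of Cyp46a1 held 6 copies of GGGCGG and no TATAAA. The GC content was 43.7%, 46%, 52.3% and 73% in the order shown, against a median of 51.7% over all promoters. Of the 8 members later described as raised with liver genes, 7 had a promoter in the table, of which 3 held TATAAA (Cyp2c11, Cyp2c22 and Cyp2e1) and 4 did not. Of 34 other members 7 held TATAAA and 16 GGGCGG. A match of letters is not evidence of a bound factor.

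Expression of P450 genes differed between strains. Over the 74 strains 40 of the 51 members had a strain effect, and the median R2 of all 51 was 0.551. Without LE/Stm and F344/Stm, 29 members did, against 37.2% of all genes, and the median R2 of all 51 was 0.495, against 0.449 for all genes. The 11 calls that were lost were Cyp2c11, Cyp2c13, Cyp2c22, Cyp2c23, Cyp2c6v1, Cyp2d2, Cyp2d4, Cyp2e1, Cyp3a2, Cyp3a23-3a1 and Cyp27b1. By role, 15 of 18 genes of xenobiotic metabolism were called with these progenitors and 5 without them. Among these lost calls, adjusted p by limma moved only from 0.0277 to 0.0522 for Cyp2c13 and from 0.0457 to 0.0537 for Cyp2d4. Fatty acid and eicosanoid genes gave 12 of 15 both ways, steroid hormone genes 6 of 7 both ways, and cholesterol and bile acid genes 3 of 5 both ways. Vitamin D and retinoic acid genes gave 4 of 5 and then 3, and Cyp20a1, whose substrate is not known, was called in neither. With replicate 2 left out in all strains 14 of the 51 members were called, against 14.1% of all genes. That setting also removed LE/Stm, BUF/MnaMcwi and LEXF2B/Stm, whose single animals are replicate 2. All 11 calls named above were lost in it too, so it is not a check on replicates alone. Roles were not counted there.

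**Figure D1:**
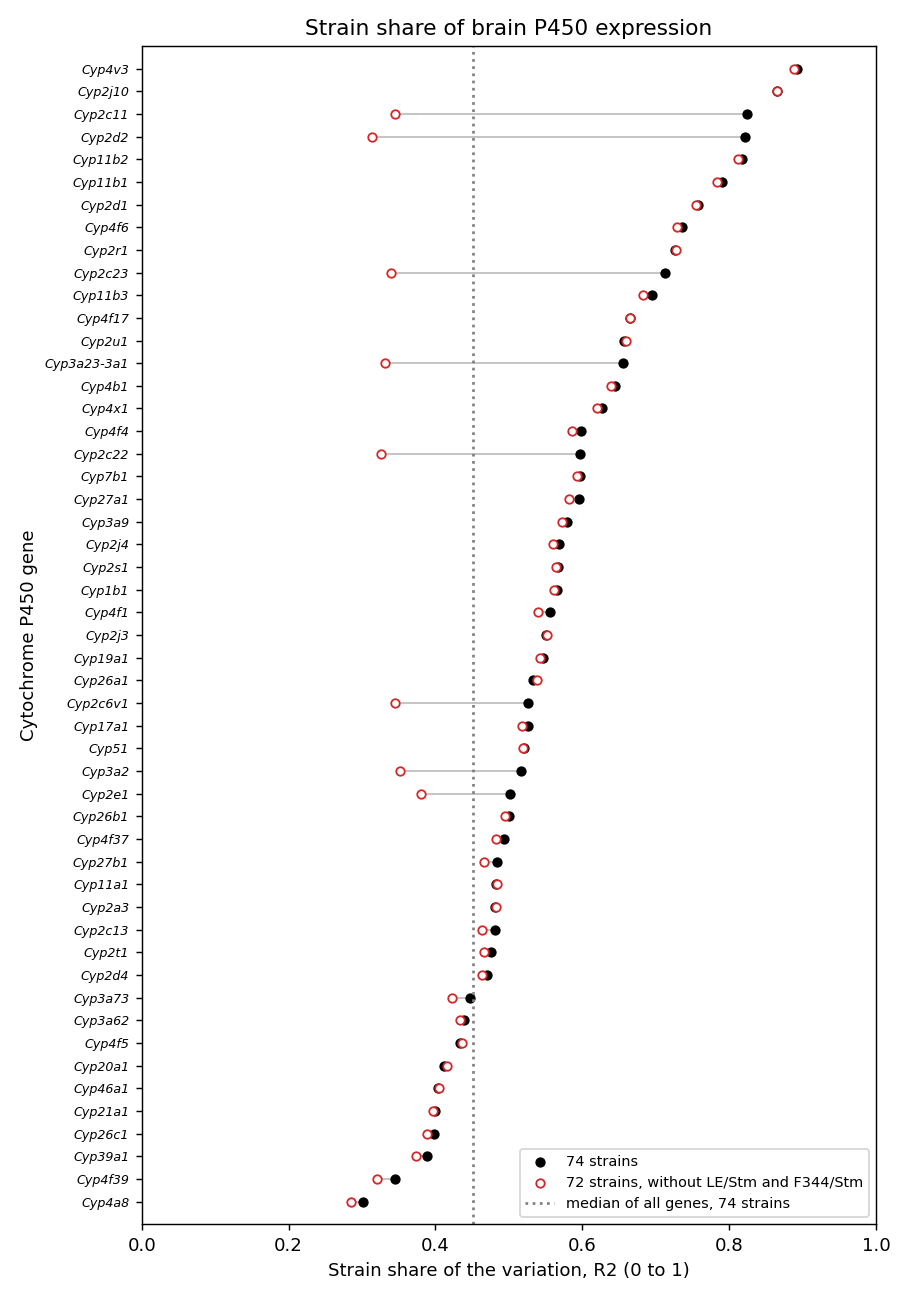
R2 (horizontal axis, 0 to 1) of each of the 51 P450 genes over 74 strains (filled points) and over 72 strains without LE/Stm and F344/Stm (open points), ordered by the first; the dotted line is the median of all genes over 74 strains, 0.451. The points of Cyp2c11 moved from 0.824 to 0.346 and those of Cyp2d2 from 0.822 to 0.313, while Cyp4v3 stayed at 0.892 and 0.888.

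Of the 5 sterol enzymes 3 had a strain effect. Cyp46a1, which hydroxylates cholesterol in neurons and so allows its export from brain, ran from 10.97 through a median of 11.63 to 12.19 over the 197 animals. It had no strain effect (R2 = 0.404, adjusted p = 0.283 by limma), and strain means ran from 11.31 in BUF/MnaMcwi, a single animal, to 11.98 in LEXF5/Stm. The call was gained with sequencing batch as a covariate (adjusted p = 0.0382 by limma). Batch was taken from the batch label or the column name, and the label differs from the batch in the sample title for 26 of 232 samples. An animal with repeat libraries was given the lowest of its batch numbers. Cyp51, the lanosterol demethylase of cholesterol synthesis, ran from 12.3 through 12.7 to 13.0 and had a strain effect (R2 = 0.520). Cyp7b1, an oxysterol hydroxylase, also did (R2 = 0.596), as did the sterol hydroxylase Cyp27a1 (R2 = 0.595). Strain means of Cyp7b1 ran from 9.46 in FXLE13/Stm to 10.4 in BUF/MnaMcwi, both single animals. The call of Cyp51 was lost without replicate 2 (adjusted p = 0.341 by limma) or 3 (0.196), and that of Cyp7b1 without replicate 2 (0.083). Cyp39a1, another oxysterol hydroxylase, had none in this table (R2 = 0.388), but had one in an earlier deposited table of 132 animals built on Ensembl genes (R2 = 0.628, adjusted p = 1.54e-06 by limma), as had Cyp46a1 (adjusted p = 0.000615). Cyp51, Cyp46a1, Cyp2j3, Cyp7b1 and Cyp26b1 had the highest mean values of the 51 members, but values are not per length and do not rank genes.

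In all, 11 members were called neither over the 74 strains, with or without LE/Stm and F344/Stm or the animals of raised liver genes, nor in a family or the classic strains. With batch as covariate Cyp46a1, Cyp2t1 and Cyp4f5 were called. In other deposited tables Cyp20a1, Cyp2t1, Cyp39a1, Cyp3a62, Cyp46a1 and Cyp4f39 were each called at least once. Cyp4f39 was called in an Ensembl table where its mean was 7.78, against 2.06 here. These values cannot be taken as the same measure. Beside Cyp46a1 and Cyp39a1 the 11 members were Cyp20a1, Cyp21a1, Cyp26c1, Cyp2t1, Cyp3a62, Cyp3a73, Cyp4a8, Cyp4f39 and Cyp4f5. Their R2 over 74 strains lay between 0.301 for Cyp4a8 and 0.476 for Cyp2t1. Of these Cyp4a8, Cyp21a1, Cyp3a73, Cyp4f39 and Cyp26c1 had values of 2.62 or less in every animal.

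Among the steroid genes, the adrenal Cyp11b cluster of chromosome 7 carried the strongest strain effects. Cyp11b1 makes corticosterone, Cyp11b2 is the aldosterone synthase, and Cyp11b3 is a paralog found in rat. Their R2 over 74 strains was 0.790, 0.817 and 0.694. In F344/Stm, Cyp11b2 stood at 5.69 ± 0.08 (SD, n = 3) and in the single LE/Stm animal at 4.56. Cyp11b3 stood at 4.19 ± 0.09 and 2.93, and Cyp11b1 at 9.36 ± 0.05 and 8.47. No F344/Stm animal was as low as the LE/Stm animal in any of these genes, and all 3 were called higher in F344/Stm, by 0.89 (SE 0.20), 1.13 (SE 0.30) and 1.26 (SE 0.33) for Cyp11b1, Cyp11b2 and Cyp11b3, with adjusted p of 0.00443, 0.0355 and 0.0280 by limma. Among all genes 0.134% were higher in F344/Stm. LE/Stm has 1 animal, which the fit assumes to vary like animals of other strains, so these values compare that animal with F344/Stm. Without F344/Stm replicate 1, or without replicate 2, the calls of Cyp11b2 and Cyp11b3 were lost, and without replicate 3 that of Cyp11b2, while the differences stayed between 1.10 and 1.18 for Cyp11b2 and were 1.21 or more for Cyp11b3. With the mean of a liver gene list as covariate all 3 calls were lost, at differences of 0.99, 1.18 and 1.38 (adjusted p by limma of 0.0723, 0.316 and 0.234). In that fit the slope on the list came from other strains, whose highest list mean was 12.5, and was carried to 18.0 in the LE/Stm animal. The lost calls are thus an extrapolation, which the p-values do not cover. In the classic inbred strains the strain effects of Cyp11b1 and Cyp11b3 were lost without LE/Stm and F344/Stm, and that of Cyp11b2 was kept.

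The same cluster segregated in FXLE/LEXF, where neither progenitor took part in the fit. Cyp11b1 had an R2 of 0.876, Cyp11b2 of 0.787 and Cyp11b3 of 0.837. The call of Cyp11b2 was lost without replicate 1 (adjusted p = 0.204 by limma) or 2 (0.554), and that of Cyp11b3 without replicate 2 (0.176). Ordered by their means, the strains of Cyp11b3 parted at their widest gap (0.334) into 8 low and 11 high strains. Animals of the low strains ran from 2.73 through 3.38 to 3.89 and those of the high strains from 3.07 through 4.31 to 5.44, so that the 2 ranges overlapped. FXLE18/Stm was lowest (2.91 ± 0.25, n = 2) and FXLE12/Stm highest (4.88 ± 0.49, n = 3). For Cyp11b1 the gap left 11 low strains and for Cyp11b2 5. All 5 low strains of Cyp11b2 and all 8 of Cyp11b3 were among the 11 of Cyp11b1, or 45.5% and 72.7% of those 11. The genes share sequence, so these lists are not independent of each other.

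In HXB/BXH, Cyp11b1 (R2 = 0.816) and Cyp11b2 (R2 = 0.699) were called and Cyp11b3 was not (R2 = 0.438, adjusted p = 0.150). The strain means of Cyp11b1 formed no clear step (widest gap 0.113), and ran from 8.64 to 9.78. BN-Lx/Cub at 9.36 and SHR/OlaIpcv at 9.20 lay within that range, with 17 strains below both and 8 above both. Cyp11b2 parted at a gap of 0.243 into 10 low and 20 high strains. Over 12 libraries of 1 SHR/OlaIpcv animal it ran from 4.60 to 6.02, wider than the HXB/BXH strain means (4.43 to 5.57). The SD over these libraries was 0.41, against 0.26 between animals of a strain. Outside the families, Cyp11b2 was highest in SR/JrHsd (6.05 ± 0.26, n = 3) and stood at 4.74 ± 0.13 (n = 3) in SS/JrHsd, with no overlap between these animals, and lowest in the single animal of BUF/MnaMcwi (3.98). F344/NCrl (4.71 ± 0.08, n = 2) and F344/NHsd (4.85 ± 0.17, n = 3) lay below every F344/Stm animal. These differences between substrains were not tested. By the batch labels used here the F344 substrains shared no sequencing batch, so substrain and batch cannot be told apart.

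A further 3 steroid genes had strain effects of smaller size. Cyp19a1, the aromatase that makes estrogens, had an R2 of 0.546 with strain means from 4.51 to 5.27. Cyp17a1 and Cyp11a1, which act early in steroid synthesis, had R2 of 0.526 and 0.483, at values of at most 2.39 and 1.60 in any animal. These calls were not firm: that of Cyp11a1 was lost without any of the replicate numbers 1, 2 and 3, with the meningeal list as covariate (adjusted p = 0.0722 by limma), in the table of reconstructed genes and in a later Ensembl table. That of Cyp17a1 was lost without replicate 2 or 3, and that of Cyp19a1 without replicate 2. Cyp21a1 was not called.

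Of the fatty acid and eicosanoid genes, Cyp4v3 on chromosome 16, which hydroxylates fatty acids at the chain end, had the highest R2 of all members (0.892, and 0.888 without LE/Stm and F344/Stm). It ran from 6.83 through 9.25 to 10.1 over the 197 animals. The F344 strains were lowest of the classic strains. F344/NCrl gave 6.83 and 7.46 in its 2 animals, F344/NHsd gave 7.95, 7.91 and 7.91, and F344/Stm gave 8.35, 8.45 and 8.50. LE/Stm gave 10.0 in its single animal, the highest classic strain mean. The 3 F344 substrains did not overlap with each other. By the batch labels used here they shared no sequencing batch, so substrain and batch cannot be told apart. Over 12 libraries of 1 SHR/OlaIpcv animal Cyp4v3 ran from 8.86 to 9.70. F344/Stm was called lower than the single LE/Stm animal by limma (difference −1.59, SE 0.26). The call held under every leave-out of an F344/Stm animal. It was lost with the mean of a liver gene list as covariate, at a difference of −1.21 (SE 0.35). As for the Cyp11b genes, that covariate fit was extrapolated to the LE/Stm animal.

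In FXLE/LEXF, Cyp4v3 had an R2 of 0.898 and its strain means parted at the widest gap of any member called in a family, 0.454. The low side held 9 strains, whose animals ran from 7.26 through 8.17 to 8.49, and the high side 10 strains, from 8.24 through 9.66 to 10.1. The strain next to the gap, LEXF2C/Stm, mixed both: its animals gave 8.53, 8.24 and 10.0. The third animal also stood apart from the other 2 animals of its strain in Cyp11b3 (3.07 against 4.18 and 4.21) and Cyp11b2 (4.66 against 5.52 and 5.77). The count of members called in FXLE/LEXF was 8 with and without that animal. Apart from LEXF2C/Stm, animals of the low and high sides did not overlap. In strain means 10 strains were nearer to F344/Stm and 9 nearer to LE/Stm, and no strain lay above LE/Stm while 7 lay below F344/Stm. In HXB/BXH, Cyp4v3 was not called (R2 = 0.421, adjusted p = 0.198); BN-Lx/Cub at 9.41 and SHR/OlaIpcv at 9.56 differed by −0.16 (SE 0.21, adjusted p = 0.730 by limma).

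Cyp4x1, a brain P450 of chromosome 5 that acts on the endocannabinoid anandamide, segregated in FXLE/LEXF with the highest R2 of a member there (0.949) on a small scale. The 8 low strains had animals between 7.81 and 8.24 (median 8.09) and the 11 high strains between 8.35 and 8.65 (median 8.51). No animal of either side reached into the range of the other. All low strains were LEXF strains, and every FXLE strain was on the high side. LE/Stm gave 8.04 and F344/Stm gave 8.34, 8.52 and 8.46, which follow the order of the sides, but their difference was not called (0.40, SE 0.15, adjusted p = 0.333). Without replicate 2 the family call of Cyp4x1 was lost. Of the 8 low strains, 4 were also on the low side of Cyp4v3, or 50% of these and 44.4% of the other list.

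**Figure D2:**
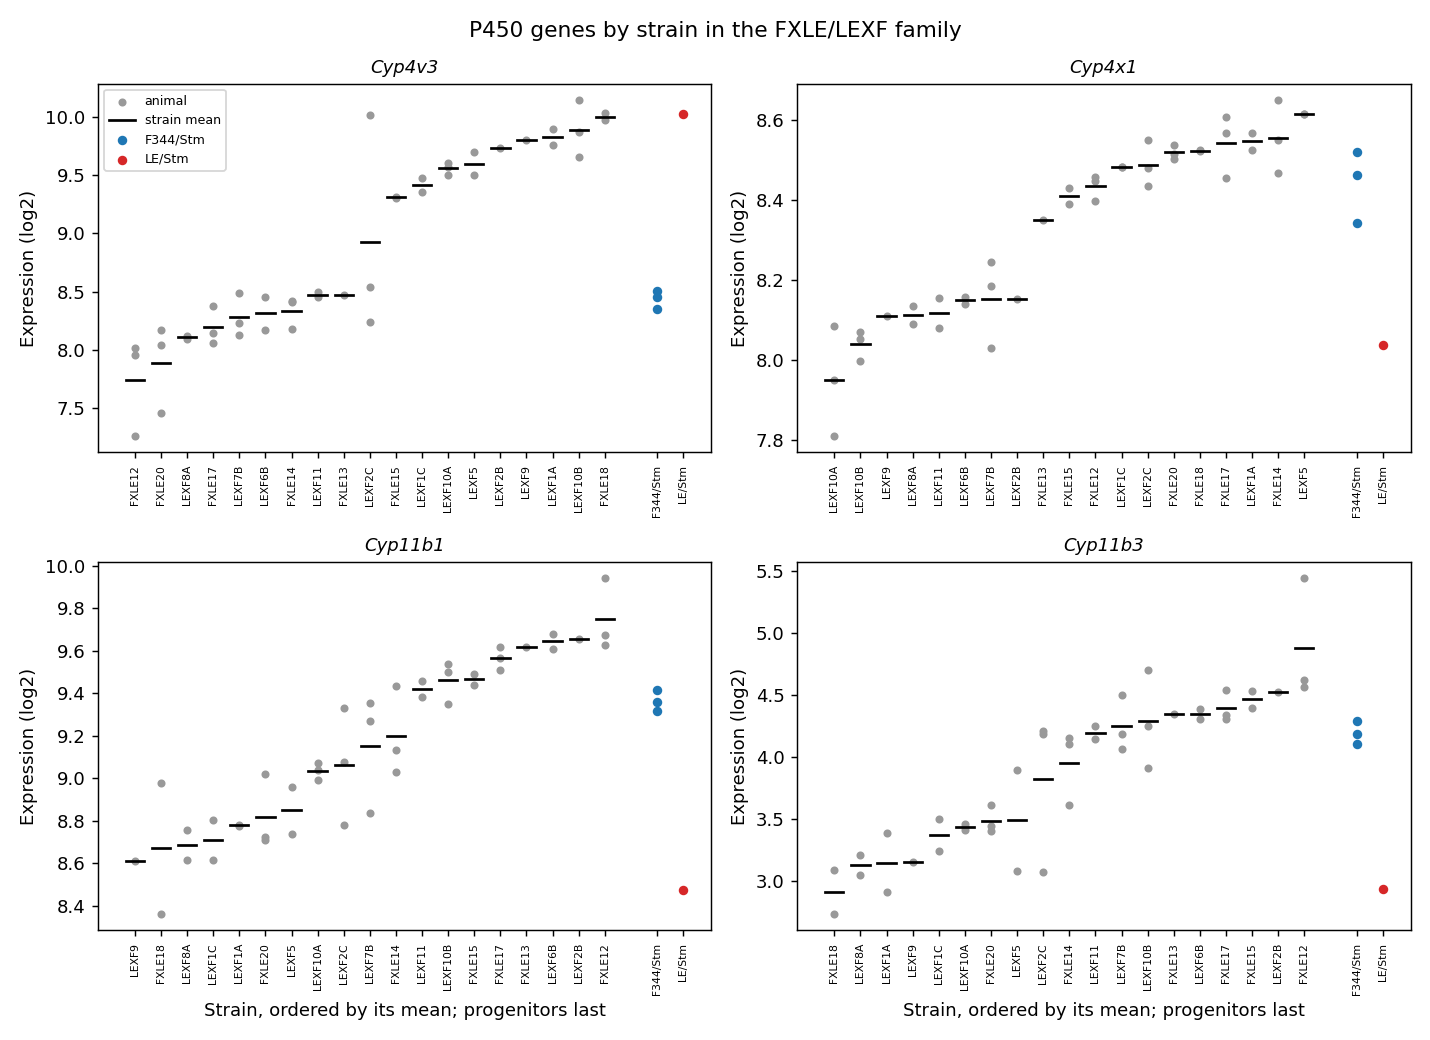
Expression (log2, vertical axis) of Cyp4v3, Cyp4x1, Cyp11b1 and Cyp11b3 in each FXLE/LEXF strain, ordered by its mean along the horizontal axis, with F344/Stm and LE/Stm last; points are animals and bars strain means. Cyp4x1 animals part at 8.24 and 8.35 with no overlap, and LEXF2C/Stm spans both sides of Cyp4v3 (8.24 to 10.0).

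In FXLE/LEXF 8 members were called, against 5.08% of all genes. Beside Cyp4v3, Cyp4x1 and the 3 Cyp11b genes these were Cyp4f6 (R2 = 0.712, adjusted p = 0.0372), Cyp2s1 (0.753, 0.0292) and Cyp2d4, the main Cyp2d enzyme of rat brain (0.686, 0.0367). The call of Cyp4f6 was lost with batch as covariate (adjusted p = 0.0555 by limma) and without replicate 1 or 2. That of Cyp2d4 was lost without the mean-variance trend (0.0537), with only genes above the median level tested (0.0526) and without any of the replicate numbers 1, 2 and 3. That of Cyp2s1 was lost without replicate 1 or 2. With replicate 2 left out in all strains, 2 members remained called, Cyp4v3 and Cyp11b1, against 0.436% of all genes. That setting also removed LEXF2B/Stm, whose single animal is replicate 2.

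In HXB/BXH 20 members were called, against 19.2% of all genes, of which 9 were fatty acid and eicosanoid genes. With replicate 1, 2 or 3 left out in this family the count was 13, 11 or 12. The shares of all genes were then 7.92%, 9.01% and 8.1%. Cyp2j10, an arachidonic acid epoxygenase of chromosome 5, had the highest R2 there (0.899). The strain means parted at a gap of 0.285 into 10 low strains, whose animals ran from 6.54 through 6.94 to 7.24, and 20 high strains, from 7.19 through 7.97 to 8.32. Low animals overlapped with high animals only narrowly: 3 low animals were above the lowest high animal. HXB20/Ipcv was lowest (6.80) and HXB25/Ipcv highest (8.24) in strain means. Over all 74 strains the R2 was 0.865, with BN/NHsdMcwi lowest (6.73 ± 0.11, n = 3) and the single BUF/MnaMcwi animal highest (8.45). Its neighbour Cyp2j3 was called too (R2 = 0.597), and Cyp2j4 was not (R2 = 0.369).

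The progenitors did not show this difference in Cyp2j10 as averaged by animal: BN-Lx/Cub gave 7.46, 7.23 and 7.16, and SHR/OlaIpcv gave 7.51 and 7.03. All 20 high strains lay above both means and all 10 low strains below both. Repeat libraries bear on this value. SHR/OlaIpcv replicate 1 was sequenced 12 times, and gave 7.64 to 8.05 in 6 libraries of batches 1 to 6 but 6.92 to 7.65 in 6 libraries of later batches. In batches 3, 4 and 6, which both strains share, its 3 libraries gave 7.83 to 8.05 and the 4 libraries of BN-Lx/Cub gave 7.14 to 7.46, with no overlap. A limma fit over all libraries with batch as covariate and the animal as random block, chosen after seeing the data, gave a difference of −0.73 (SE 0.14, adjusted p = 5.19e-05). That fit rests on 2 animals of SHR/OlaIpcv with 18 libraries and on 3 animals of BN-Lx/Cub with 4, and it called 16.7% of all genes. By animal the difference was 0.02 (adjusted p = 0.973 by limma), and the fit over animals with batch as covariate called 0 members, against 0.743% of all genes. In that fit SHR/OlaIpcv replicate 1 counted as batch 1, while its value averaged 12 libraries of early and later batches. The covariate therefore does not describe that value. Whether the batch shift changed other strains in the same way was not tested.

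Between BN-Lx/Cub and SHR/OlaIpcv 3 members were called, against 4.60% of all genes: 1 higher in BN-Lx/Cub, against 2.69%, and 2 lower, against 1.91%. Cyp2r1, a vitamin D hydroxylase of chromosome 1, gave 7.74, 6.97 and 7.16 in BN-Lx/Cub and 6.37 and 6.60 in SHR/OlaIpcv. It was higher by 0.81 (SE 0.20, adjusted p = 0.00731 by limma). Cyp2d1, a drug-metabolizing enzyme of chromosome 7, gave 3.88, 3.98 and 4.00 against 4.88 and 4.84, a difference of −0.91 (SE 0.29, adjusted p = 0.0484). Cyp4f6, a hydroxylase of leukotrienes and fatty acids on chromosome 7, gave 6.85, 6.93 and 7.01 against 7.54 and 7.79, a difference of −0.73 (SE 0.19, adjusted p = 0.00868). In each gene the animals of both strains did not overlap. With 3 and 2 animals these calls were not firm: all 3 were lost without BN-Lx/Cub replicate 1, without SHR/OlaIpcv replicate 4, or with batch as covariate over animals, where the differences were 0.96, −1.28 and −0.81. Without SHR/OlaIpcv replicate 1, Cyp4f6 alone was called, and without BN-Lx/Cub replicate 2 or 3 the call of Cyp2d1 was lost. The fit over libraries called 7 members, these 3 with Cyp11b2, Cyp2j10, Cyp27b1 and Cyp3a9, against 16.7% of all genes. In the fit over animals, batch was that of the first library, which does not describe the averaged SHR/OlaIpcv values.

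In the recombinant strains, which are other animals, all 3 genes had strain effects. Cyp2r1 had an R2 of 0.837 and parted into 10 low strains (animals 5.90 to 6.73, median 6.29) and 20 high strains (6.51 to 7.34, median 6.94). Its strains were nearer to BN-Lx/Cub in 13 cases and to SHR/OlaIpcv in 17, and 9 lay below both. Cyp2d1, whose promoter with a TATAAA match is shown above, had an R2 of 0.832 and a gap of 0.448 between 12 low strains (3.36 to 4.94, median 3.94) and 18 high strains (4.23 to 5.57, median 5.06). Cyp4f6 had an R2 of 0.760 and a gap of 0.242 between 12 low strains (6.80 to 7.57, median 7.07) and 18 high strains (6.91 to 8.05, median 7.66). For Cyp2d1 and Cyp4f6 the 12 low strains were the 12 nearer to BN-Lx/Cub. For Cyp2d1 16 strains lay above both progenitors and 4 below both, and for Cyp4f6 6 and 0. The SHR/OlaIpcv means in these counts average libraries of early and later batches. In batches 3, 4 and 6 the library means of BN-Lx/Cub and SHR/OlaIpcv were 7.26 and 6.23 for Cyp2r1. They were 3.96 and 5.00 for Cyp2d1, and 6.95 and 7.58 for Cyp4f6. The SHR/OlaIpcv libraries there are of replicate 1 alone, and recombinant strains were not counted against these means. Animals of low and high strains overlapped in each of these 3 genes. Over the 12 libraries of SHR/OlaIpcv replicate 1 the SD was 0.30 for Cyp2r1, 0.40 for Cyp2d1 and 0.31 for Cyp4f6. Between animals of a strain it was 0.22, 0.32 and 0.21. In all, 27 of 51 members varied more over these libraries than between animals of a strain. With batch as covariate all 20 members called in HXB/BXH stayed called.

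Genes on 1 chromosome did not all part along the same strains. Of the low strains of Cyp2d1, 9 were also low for Cyp11b2, or 75% of the first list and 90% of the second; both genes lie on chromosome 7. With Cyp4f6, on the same chromosome, Cyp2d1 shared 3 low strains (25% of each list). With Cyp2r1 and with Cyp2j10 it shared 3 as well (30% of each of those lists). In the study's brain annotation Cyp4f6 lies from base 12030041 of chromosome 7. The paralogs Cyp11b3 and Cyp2d2 lie from bases 106683068 and 113935138. Which genotypes these strains carry was not analysed here.

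**Figure D3:**
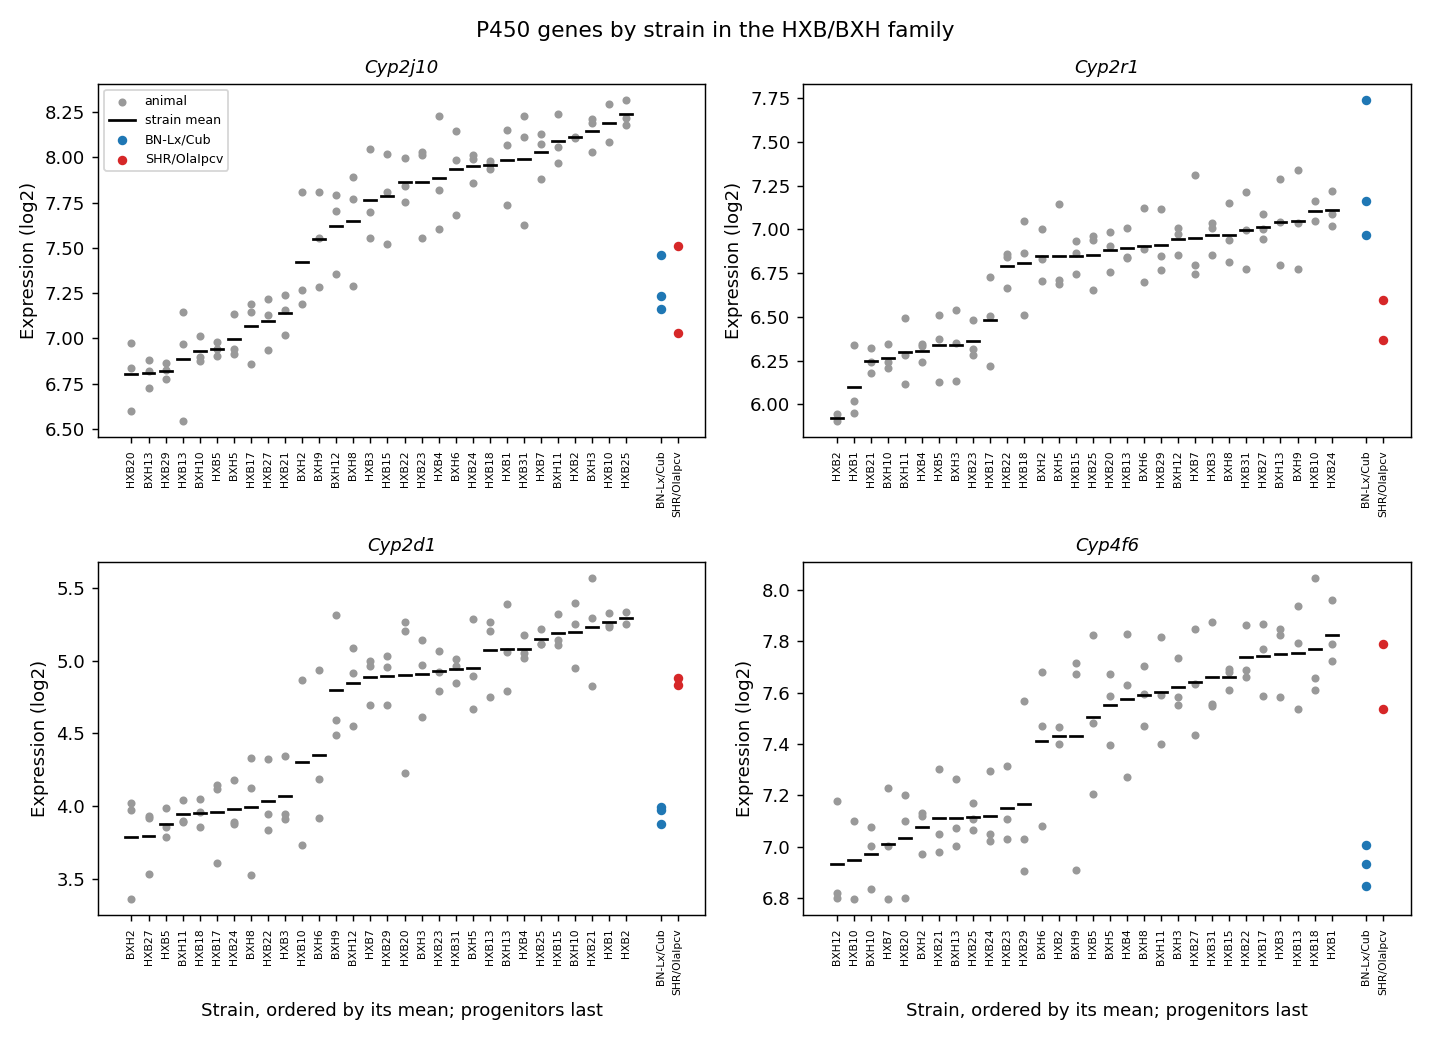
Expression (log2, vertical axis) of Cyp2j10, Cyp2r1, Cyp2d1 and Cyp4f6 in each HXB/BXH strain, ordered by its mean along the horizontal axis, with BN-Lx/Cub and SHR/OlaIpcv last; points are animals and bars strain means. The steps lie at 7.14 to 7.42 for Cyp2j10 and at 4.35 to 4.80 for Cyp2d1, and the Cyp2j10 means of BN-Lx/Cub (7.29) and SHR/OlaIpcv (7.27) lie between its sides.

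Apart from Cyp11b2, the other members called in HXB/BXH had gaps of 0.163 or less. Cyp4b1 (R2 = 0.719) was set apart by BXH10/Cub and HXB2/Ipcv, whose means of 4.61 and 4.87 lay 0.163 or more above all others. Cyp2u1 (0.714) and Cyp4f17 (0.693), which hydroxylate fatty acids, varied within 0.49 and 0.63 in strain means. The HXB/BXH calls of Cyp2u1 and Cyp2j3 were lost without replicate 3 (adjusted p = 0.0563 and 0.167 by limma), and that of Cyp4f17 without replicate 1 (0.149). Cyp3a9, a steroid and drug hydroxylase, gave 0.646, and its call was also lost without replicate 3. Without animals of high liver gene values 17 of the 20 members stayed called, against 13.3% of all genes; Cyp26a1, which degrades retinoic acid, Cyp4f1 and Cyp51 did not.

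Of the 18 genes of xenobiotic metabolism, Cyp1b1, Cyp2a3, Cyp2d1, Cyp2s1 and Cyp3a9 had a strain effect with and without LE/Stm and F344/Stm. Over the 74 strains the calls of Cyp1b1 (without replicate 2), Cyp2a3 (without 1 or 3) and Cyp2s1 (without 2 or 3) were lost when a replicate number was left out, and those of Cyp2d1 and Cyp3a9 were not. The call of Cyp2a3 was also lost without LEW/Crl, the strain of its highest mean (4.16). Other genes of this role had high values in single animals. A list of 12 liver genes (Alb, Apoa1, Fga and others) had a mean between 5.71 and 18.0 over the 197 animals, with a median of 7.24. It lay more than 1 above that median in 12 animals of 10 strains. Raised values of members, taken as more than 2 above the member's median, were found in 12 animals and in 8 members only: Cyp2c11, Cyp2c22, Cyp2c23, Cyp2c6v1, Cyp2d2, Cyp2e1, Cyp3a2 and Cyp3a23-3a1. These 8 were thus chosen by their values, and all are known as enzymes of liver. Raised values were not counted over all genes, so neither this number nor the match with the liver list can be set against a share. Of these 12 animals 11 were among the 12 of raised liver list; the other was M520/N replicate 3 with Cyp3a2 alone raised, at a liver list mean of 8.19.

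The single LE/Stm animal was highest on the liver list (18.0) and had all 8 members raised. Its value was 17.8 for Cyp2c11, the male-type liver P450 of rat, against a median of 6.06. For Cyp2d2 it was 15.7 against 4.83, and for Cyp2c23 14.5 against 4.95. Of F344/Stm, replicates 2 and 3 had raised liver lists (9.81 and 9.49) and replicate 1 did not (7.06). Cyp2c11 gave 5.82, 10.2 and 9.06 in these 3 animals and Cyp2e1 5.97, 7.90 and 7.94, so that the strain itself was divided. The mean of F344/Stm lay below the LE/Stm animal by 6.10 for Cyp3a2 to 9.62 for Cyp2d2 on the log2 scale. Since the 8 members were chosen for raised values, which include those of this animal, these differences are a description and no test. They make up 8 of the 9 members called lower in F344/Stm, against 0.657% of all genes, and of the 12 called either way, against 0.791%. With LE/Stm at 1 animal, the strain and that animal cannot be told apart. With the liver list as covariate the direction turned for Cyp2e1, Cyp3a2, Cyp2c6v1 and Cyp2c22. It stayed for Cyp2c11, Cyp2c23, Cyp2d2 and Cyp3a23-3a1, in a fit extrapolated to the LE/Stm animal.

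Outside these progenitors the highest values were in HXB/BXH animals. BXH6/Cub replicate 3 (liver list 12.5) had 7 members raised, with Cyp2e1, an ethanol-oxidizing enzyme, at 15.9 and Cyp3a2 at 14.8, both above the LE/Stm animal at 13.8 and 13.7. HXB10/Ipcv replicate 1 (12.2) had 7 raised, with Cyp2e1 at 13.8 but Cyp2c11 not raised. HXB20/Ipcv replicate 3 and BXH10/Cub replicate 3 had 5 each, and BXH3/Cub replicate 2 and HXB23/Ipcv replicate 3 had 3 each. HXB21/Ipcv replicate 2 had a raised liver list (8.88) and no raised member. In no strain with more than 1 animal were all animals raised.

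Repeat libraries of the same animal differed as well. Of the 12 libraries of SHR/OlaIpcv replicate 1, that of batch 11 had a liver list mean of 12.7 while the other 11 had 6.74 to 7.59. In that library Cyp3a2 stood at 9.85 and Cyp2e1 at 8.77, against highest values of 6.55 and 6.93 in the other 11. Cyp2d2 stood at 6.93 there, and Cyp2c11 at 6.49, against highest values of 5.23 and 6.15 in the others.

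In the 185 animals whose liver list was not raised, Cyp2c11 ran from 4.99 to 6.83 and Cyp2d2 from 4.34 to 5.64. The defining liver gene Alb had a median of 11.4 over all animals and 23.2 in the LE/Stm animal. With all 12 raised animals left out, the R2 of the 8 members lay between 0.322 for Cyp2c22 and 0.397 for Cyp2c6v1. Since 11 of these 12 animals held the values by which the 8 were chosen, this is a description and no test. Over all members 29 had a strain effect in that fit, against 31.0% of all genes. None of the 8 was called in HXB/BXH or in FXLE/LEXF, except that Cyp2c6v1 and Cyp2e1 were called in HXB/BXH without replicate 3. For HXB/BXH this is no test either, since raised values in part of a strain's animals widen the spread within strains. Among the classic inbred strains 26 members were called, against 19.2% of all genes, and 14 without LE/Stm and F344/Stm, against 18.9%. Over the 197 animals the means of the lists for meninges, choroid plexus, endothelium, astrocytes and neurons ranged less than those for blood (11.0 to 13.8), olfactory bulb (5.76 to 7.85) pineal (3.36 to 6.79) and pituitary (4.42 to 6.65, 1 gene of 3 in the table), and all ranged less than the liver list. The LE/Stm animal was at the top of the liver list alone; it ranked 12 for endothelium, 14 for choroid plexus and 28 for meninges from the top, and between 64 and 180 for the other lists.

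**Figure D4:**
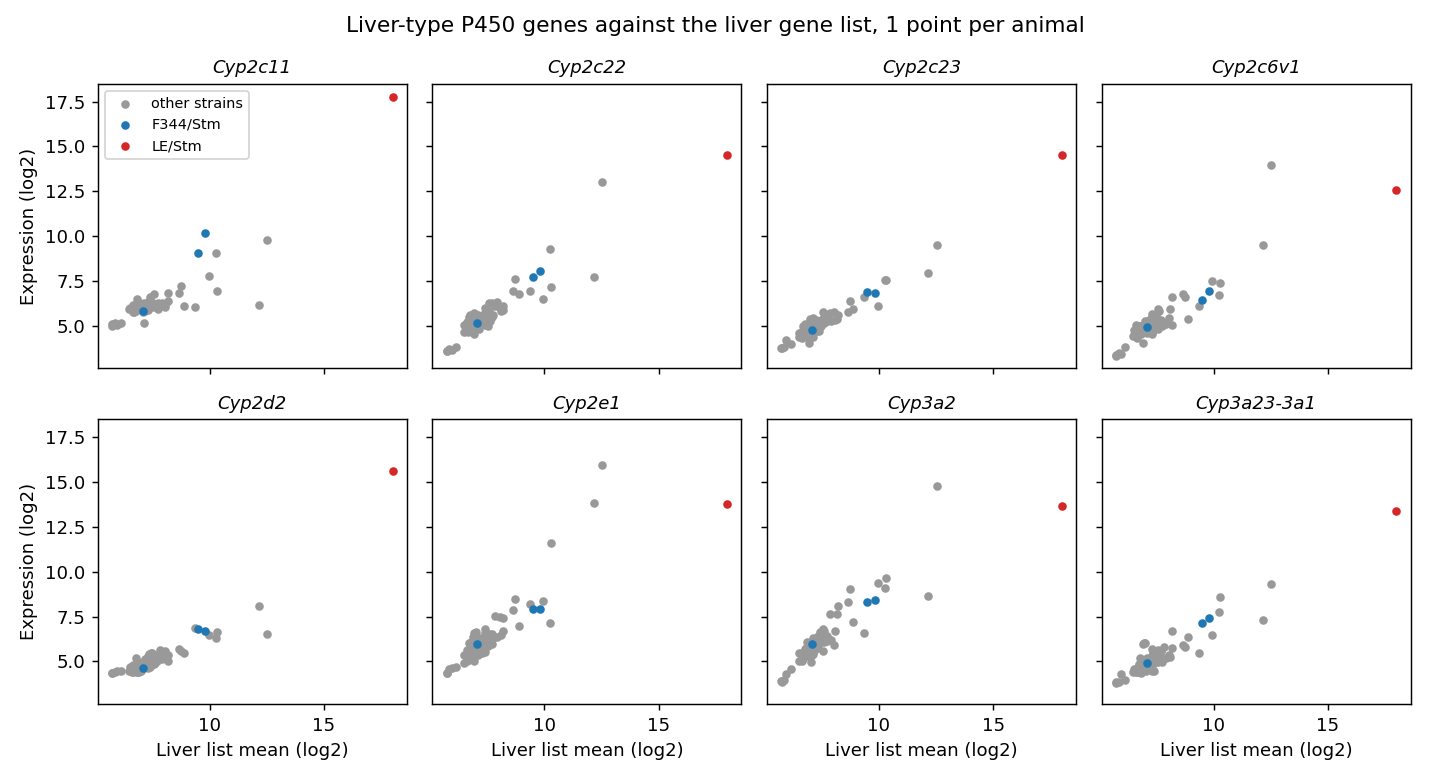
Expression (log2, vertical axes) of the 8 members with raised values against the mean of 12 liver genes (log2, horizontal axes), 1 point per animal for 197 animals. LE/Stm (red) lies at 18.0 on the horizontal axis, 2 of the 3 F344/Stm animals (blue) lie at 9.49 and 9.81, and a few animals of other strains lie higher than these.

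A further 2 animals of LE/Stm, replicates 1 and 3, were in an earlier table of the study built on Ensembl genes (132 animals), which was normalized separately. There Cyp2c11 stood at 6.62 and 13.8 in them, against a median of 3.90, and Cyp2d2 at 5.96 and 14.9 against 3.88. The F344/Stm animals gave 5.93, 11.9 and 11.6 for Cyp2c11, between the LE/Stm values in 2 of 3 animals, and 5.33, 10.4 and 10.3 for Cyp2c22, where LE/Stm gave 6.75 and 8.58. The animals of these strains overlapped in both genes, unlike those of the main table. Alb stood at 13.6 and 18.9 in LE/Stm and at 12.1, 15.8 and 15.7 in F344/Stm, against a median of 9.63. F344/Stm replicate 1, whose liver list was not raised in the main table, thus lay above this median as well. In the Cyp11b3 feature of that table the LE/Stm animals gave 8.62 and 8.48, and F344/Stm gave 9.84, 9.89 and 9.76. For this feature both LE/Stm animals lay below the 3 F344/Stm animals. This difference, and the part of liver genes in it, was not tested there. The median of the feature was 9.43, against 3.65 for Cyp11b3 and 9.18 for Cyp11b1 in the main table. It therefore cannot be taken as a measure of Cyp11b3 alone.

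Presence or absence by strain was looked for as a gap of at least 1 between neighbouring strain means, with 2 or more strains on either side. Over the 74 strains 4 members had such a gap, against 0.153% of all genes: Cyp2c11, Cyp2c6v1, Cyp2e1 and Cyp3a2. Without LE/Stm and F344/Stm 2 did, against 0.0911%, and without the 12 animals of raised liver list 0 did, against 0.0575%. None had a gap of 2. In the families the widest gap of a called member was that of Cyp4v3, 0.454. No test applies to these counts.

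**Figure D5:**
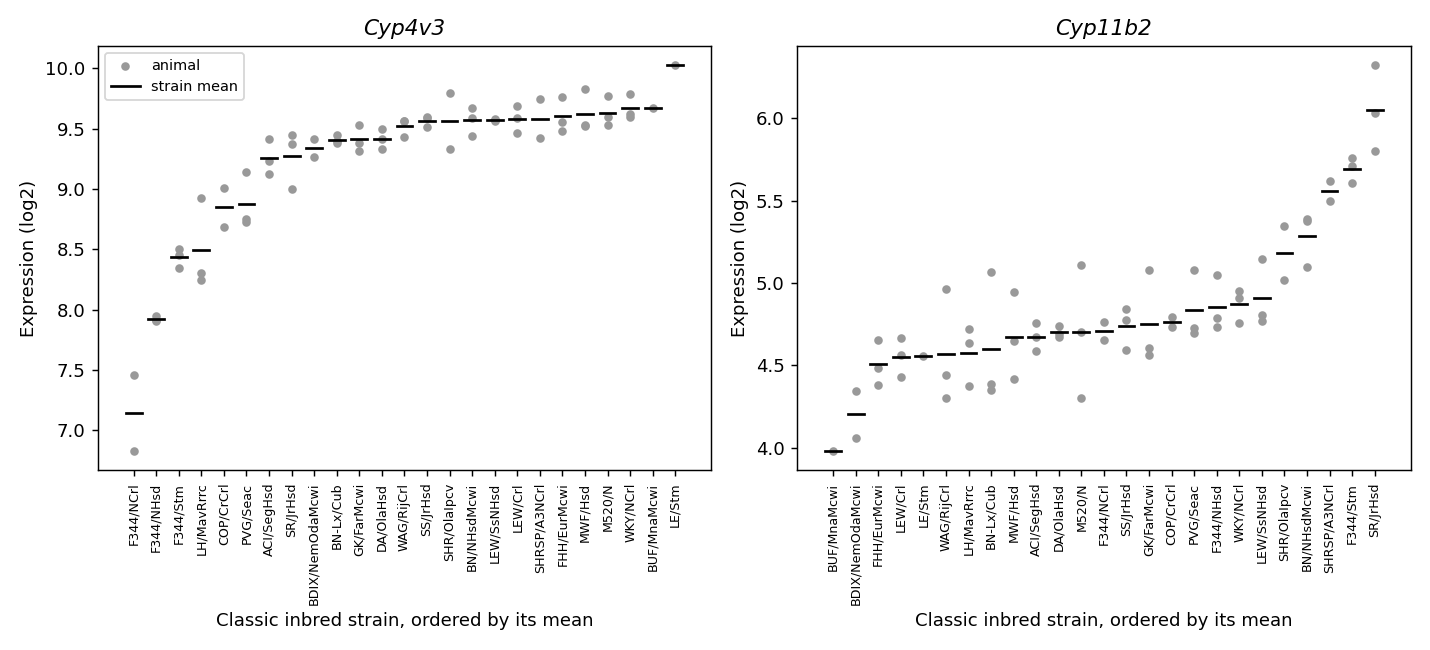
Expression (log2, vertical axis) of Cyp4v3 and Cyp11b2 in the 25 classic inbred strains, ordered by their means along the horizontal axis; points are animals and bars strain means. F344/NCrl, F344/NHsd and F344/Stm are the lowest for Cyp4v3 (7.15, 7.92 and 8.43), while for Cyp11b2 F344/Stm (5.69) lies below SR/JrHsd (6.05) alone.

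Genes of the pathway outside the symbol rule were taken from a list of 22, of which 21 were in the table. The list includes Tbxas1, the thromboxane synthase, and Ptgis, the prostacyclin synthase, which are P450 enzymes themselves under other symbols. Both had a strain effect over the 74 strains (R2 = 0.696 and 0.548) and in HXB/BXH. Of the other 19, 7 were called over the 74 strains, against 37.7% of all genes, and 7 without LE/Stm and F344/Stm, against 37.2%. Their median R2 was 0.444, against 0.451 for all genes. Por, the electron donor of microsomal P450s, was not called (R2 = 0.420, adjusted p = 0.195 by limma). Neither were the mitochondrial ferredoxin Fdx1 (R2 = 0.449), its reductase Fdxr (0.427), the heme synthesis enzyme Alas1 (0.423) or Ahr and Nr1i2, receptors that induce drug-metabolizing P450s (0.332 and 0.420). The highest R2 were those of Ephx2, which opens the epoxides made by Cyp2j enzymes (0.707), and Cyb5b, a cytochrome b5 (0.706). In HXB/BXH 2 of the 19 were called, against 19.2% of all genes, and in FXLE/LEXF 3, against 5.08%. The smallest adjusted p of the 19 by limma was 0.0922 for BN-Lx/Cub against SHR/OlaIpcv and 0.382 for F344/Stm against LE/Stm.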

How the data were processed

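The authors sequenced stranded, ribosomal RNA-depleted libraries of brain, and deposited gene values on a log2 scale. The submitters' processing notes name cutadapt 1.9.1, Bowtie2 2.3.4.3 or 2.4.5, HISAT2 2.1.0 or 2.2.1, StringTie 1.3.5 or 2.2.1 and RSEM 1.3.1 or 1.3.3, by sample and with no link to a table. For an earlier version the study's methods name removal of unwanted variation and a regularized log transform; whether these steps were applied to the version used here is not given in the sources used here. Counts were not used, so depth is unknown. After 73 spike-ins were left out, 214 libraries gave 197 animals, with repeat libraries averaged. Strain effects and progenitor contrasts were fitted to all 20859 genes with limma 3.58.1 in R 4.3.3 (moderated statistics with a mean-variance trend, Benjamini-Hochberg at 5%), and the script was tested on simulated data. The named genes were the 12 members of highest R2 among those called over 74 strains, the 4 largest called differences each way in each progenitor contrast, the 5 members of highest mean level and a fixed list of brain P450 genes; other members named in the text were chosen after their values were seen. The members, gene lists and named genes were chosen with earlier results of these data known. Tables of the authors' strain means were not used. Alternatives were batch, replicate and marker-list covariates, a filter on low values, leave-outs and other deposited tables.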

Additional observations from a re-analysis of the deposited data

How the results depend on the processing

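Shares in parentheses are those of all genes called under the same setting. Batch as covariate was that of an animal's first library, also where repeat libraries were averaged. Leaving out replicate 2 also removed LE/Stm, BUF/MnaMcwi and LEXF2B/Stm, whose single animals carry that number. Over the 74 strains the count of members with a strain effect (40) was 8 of the 11 left when only genes above the median level were tested (34.4%), 25 of 36 in the table of reconstructed genes (23.8%), and 14 (14.1%) to 31 (30%) with a replicate number left out. With the same filter and 11 members it was 5 in HXB/BXH (14.6%), 3 in FXLE/LEXF (3.45%) and 2 in the classic inbred strains (12.3%), where it was 14 without LE/Stm and F344/Stm (18.9%) and 14 without animals of raised liver genes (17.6%). Leave-outs gave 11 (9.01%) to 13 (7.92%) in HXB/BXH and 2 (0.436%) to 8 (5.49%) in FXLE/LEXF. For BN-Lx/Cub against SHR/OlaIpcv, 3 members were called, and the count was 0 with batch as covariate (0.743%), 0 with the filter (4.49%), 0 to 2 in leave-outs (0.92% to 8.63%) and 7 in the fit over libraries (16.7%), which was added after seeing the data. Between F344/Stm and LE/Stm the count (12) was 2 with the filter (0.173%) and 10 to 11 in leave-outs (0.628% to 0.695%); LE/Stm has 1 animal and could not be left out. Here 4 members called lower in F344/Stm changed direction with the liver list as covariate: Cyp2e1 (5.72), Cyp3a2 (4.53), Cyp2c6v1 (2.81) and Cyp2c22 (1.36). The slope on the list came from strains with more than 1 animal, whose highest list mean was 12.5. It was carried to 18.0 for the LE/Stm animal, so these differences are an extrapolation and no comparison at like liver values. The count of members with a gap of 1 (4) was 0 at a gap of 2, 2 without LE/Stm and F344/Stm and 0 without animals of raised liver genes. The filter leaves fewer members to test; otherwise the cause was not tested. With the replicate number as a block 39 members were called, Cyp2d4 being lost; animals of the same number did not deviate together (mean r = 0.0127, against −0.00636 for unlike numbers), so the numbers do not pair animals. Of the named results under all alternatives, 949 kept their status, 127 lost the call, 6 gained it and 1 (Cyp2c22) reversed. The 949 include results called in neither fit, and F-tests, which have no direction. Cyp2e1, Cyp3a2 and Cyp2c6v1 were not among the named differences. An alternative without 2 libraries of F344/NCrl and SHRSP/A3NCrl gave no value, since the table does not hold them.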
